A study of Mus musculus with 20 samples.

Results

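Introns that begin with AT and end with AC were followed in bone marrow RNA of 20 mice. The junction table of the study gives, for each junction, the first and last bases of the intron and whether its ends are annotated. The rule took the third commonest terminal pair among junctions with both ends annotated. The table writes repeat-masked bases in lower case or as N, so that the third value, read literally, was a masked form of GT-AG. Once the case of letters was set aside and masked values were left out, the order was GT-AG (175835 junctions), GC-AG (1657) and AT-AC (168), and the AT-AC junctions were taken. No mismatch was found among 178495 annotated values compared with the bases of the NCBIM37 (mm9) genome, and this genome was used to read masked values. In all, 302 of 455922 junctions with an annotated end or pair of ends were AT-AC. Of these, 168 joined an annotated donor (5′ splice site) to its annotated acceptor (3′ splice site), 4 joined annotated sites in an unannotated pair, 106 had an annotated donor alone and 24 an annotated acceptor alone.

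The mice were recipients of transgenic marrow, in 4 groups of 5. The transgene, U2AF1(WT) or U2AF1(S34F), was switched on with rtTA by doxycycline chow (625 ppm) for 7 days, after at least 6 weeks of engraftment. Sudemycin D6 was infused on the last 5 of those days, or vehicle was given. The groups are called WT vehicle, WT sudemycin, S34F vehicle and S34F sudemycin below, and mice carry the numbers of their labels. All of them carry rtTA, received doxycycline and kept their own U2af1, so that WT mice also express a U2AF1 transgene. Donor marrow was pooled within a genotype, so the recipients of a genotype share donors. Bulk marrow was sequenced, and fewer cells of a type cannot be told apart from less RNA per cell.

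Most introns are removed by the major spliceosome, in which U2AF1 binds the AG at the 3′ end. A small class is removed by the minor spliceosome, whose U11 and U12 particles bind a long conserved donor sequence and a branch point sequence close to the acceptor, and whose protein ZRSR2, a relative of U2AF1, takes part in recognising the 3′ end. Introns of this class end in AT-AC or in GT-AG, and they lie mostly in genes for information processing, transport and signalling. A few AT-AC introns that begin with ATAAG are removed by the major spliceosome instead. The SF3B complex, to which sudemycin binds through SF3B1, is part of both spliceosomes.

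The following introns are printed because the results below turn on them, with E2f2 and Arpc5 among the most read of the class and Nop2 as the textbook case. Each donor shows 3 exon bases and then the intron, with the first 8 intron bases in capitals. Each acceptor ends with 3 exon bases, and capitals mark the terminal AC and, where one was found, a match to the branch-like motif CCTTNA. The sequences were read 5′ to 3′ on the transcript strand of NCBIM37.

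The Arpc5 intron, the first of 3, lies at chr1:154613998-154615990 on the plus strand.
Arpc5 donor: gcaATATCCTTacgc
Arpc5 acceptor: ttctgttccacCCTTAAccttcgttACagg

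The intron of its paralogue Arpc5l, also the first of 3, lies at chr2:38863865-38868634 on the plus strand.
Arpc5l donor: gcaATATCCTTcccg
Arpc5l acceptor: agccatCCTTAActggctttgatgcACagg

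The Phb2 intron, number 6 of 9, lies at chr6:124665182-124665599 on the plus strand.
Phb2 donor: atgATATCCTTgtgt
Phb2 acceptor: gaagaacCCTTAAccctgtctgctcACctt

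The Srsf10 intron, number 2 of 6, lies at chr4:135414325-135417688 on the plus strand.
Srsf10 donor: tcaATATCCTTtctt
Srsf10 acceptor: cttctcaagccCCTTAAcatttagcACatt

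The Hip1 intron, number 2 of 31, lies at chr5:135934113-135936276 on the minus strand.
Hip1 donor: ggaATATCCTTttgg
Hip1 acceptor: gcccttgtcttCCTTGActcctcccACcgt

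The E2f2 intron, number 4 of 6, lies at chr4:135737360-135740337 on the plus strand and held no CCTTNA in its last 40 bases.
E2f2 donor: gaaATATCCTTtctg
E2f2 acceptor: tgcttttcttaacttttctgcccctACact

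The Nop2 intron, number 7 of 15 and only 95 bases long, lies at chr6:125087234-125087328 on the plus strand.
Nop2 donor: aggATATCCTTtgag
Nop2 acceptor: gaggccacatttCCTTAAtgagcccACatg

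These features ran through the class. The first 8 bases were ATATCCTT in 133 of the 168 annotated introns (79.2%), and 151 (89.9%) began with ATATCC. Of all 181355 annotated introns 153 (0.0844%) began with ATATCCTT, these 133 included. That contrast largely follows from the choice of AT-AC, since most annotated introns begin with GT. The motif CCTTNA, searched on the transcript strand of the last 40 bases, was present in 71.4% of AT-AC introns, in 60.8% of 365 GT-AG introns with the related start GTATCCTT, and in 6.04% of all introns. The shorter set CCTTAA, contained in it, was present in 47.0%, 39.5% and 1.06%. The motif lay close to the AC, with a median distance of 11 bases (quartiles 10 to 12). AT-AC introns had a median length of 1204 bases, against 1368 for all introns, and 65% pyrimidines in their last 20 bases, against 70%. Of 163 introns that could be placed in a transcript, 154 (94.5%) interrupted coding sequence, 0 lay in a 5′ UTR and 3 in a 3′ UTR. They were seldom the first intron (6.13%, against 13.7% of all introns), and 25.3% of the coding ones fell between codons (phase 0), against 46.0%. The 17 annotated AT-AC introns without ATATCC were mostly little read, 11 of them under 10 reads per mouse. Taf2, which encodes a subunit of the transcription factor TFIID, had the donor ATAAGTAC (156.4 reads). The donor of Brf1, an initiation factor of RNA polymerase III, was ATCCTTTG (176.6 reads).

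Reads on junctions ranged from 34.4 M to 64.8 M per mouse (median 52.6 M), and reads on genes from 41.1 M to 62.1 M. Junction reads per gene read were lowest in WT vehicle mouse 3 (0.836) and next lowest in S34F sudemycin mouse 12 (0.930), and gene ratio counts between genotypes are also given without them. U2af1 itself was at a mean of 36.1 CPM (gene counts scaled to a common library total) in WT vehicle, 42.1 in WT sudemycin, 51.1 in S34F vehicle and 55.2 in S34F sudemycin mice, and its gene counts do not separate the transgenes. Xist was lower and 4 Y-linked genes were higher in S34F mice of both treatments. The median log2 difference of these 5 sex-linked genes was 10.1 under vehicle and 9.95 under sudemycin. Genotype and the sex that these genes mark cannot be told apart. The summed level of 8 neutrophil markers ranged from 62158 to 69374 CPM in WT vehicle and from 82217 to 138447 in S34F vehicle mice, and 4 of the 8 were called higher, against 39.5% of all genes called in either direction. Under sudemycin 2 of 8 neutrophil markers were called higher in S34F mice, while 3 of 6 B-cell, 3 of 5 T-cell, 2 of 4 megakaryocyte and 2 of 7 erythroid markers were called lower, and of 5 monocyte markers 2 were higher and 1 lower (36.8% of all genes were called). Between S34F sudemycin and WT vehicle mice 6 of 6 B-cell, 5 of 5 T-cell and 3 of 4 megakaryocyte markers were lower and 4 of 8 neutrophil markers higher, against 50.2% of all genes. The part of these differences in the intron results was not tested.

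Of the 168 annotated AT-AC introns, 123 averaged 10 reads or more in a mouse, 45 fell below 10, and 21 of those below 1. Among the most read were the introns of Arpc5 (mean 4560.5 reads), a subunit of the Arp2/3 complex that branches actin filaments, of Wdr1 (4317.8), which helps to take actin filaments apart, of Hnrnpl (1440.9), an RNA-binding splicing regulator, and of Rasgrp2 (1240.65), an activator of Rap1. Both annotated introns of Diap1, a formin that lengthens actin filaments (1122.35 and 926.75), followed with those of Spcs2, a signal peptidase subunit (1028), Ap2a2, a subunit of the clathrin adaptor AP-2 (967.05), E2f2, a cell cycle transcription factor (895.5), and Ddb1, an adaptor of the CUL4 ubiquitin ligase (845.7). These 10 introns carried 45.4% of the reads of the introns tested. The class repeated itself in gene families. All 6 introns in formins (Diap1, Diap2 and Diap3), all 6 in importins and exportins and 5 of 6 in E2f genes reached 10 reads, whereas the 10 introns in voltage-gated sodium and calcium channel genes lay between 0.05 and 1.4 reads. Of the unannotated AT-AC junctions only 6 reached 10 reads, of which 5 spanned several genes. The sixth was an E2f2 junction to an AC 2 bases downstream of the annotated one (18.55 reads).

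A pair of scales was used for each intron, and both set it against its own gene. The neighbour ratio divides its reads by the mean reads of the annotated introns next to it in the same gene, and the gene ratio divides its reads by the reads of its gene, shown as reads per 1000 gene reads. The 119 annotated introns with at least 10 reads in a single gene, 106 of them with both neighbours, and the E2f2 junction were tested.

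AT-AC introns were read about as often as their neighbours. Their neighbour ratio over all mice had a median of 0.953 (quartiles 0.792 to 1.13, n = 119), against 0.948 for 299 GT-AG introns with GTATCCTT and 0.975 (0.784 to 1.16) for 116429 annotated introns. A ratio below 1 was found for 72 of them (60.5%), against 53.8% of all introns. The median of the class in a single mouse ranged from 0.919 to 1.003. The lowest ratio was that of Wac (0.0514), where 26.9 reads stood against 523.3 on the neighbours. The Wac donor was ATCAAACC and so lacked the start ATATCC of most of the class. Next came Tcea2 (0.240), a transcription elongation factor, both alternative introns of Tmem87b (0.264 and 0.359) and Zdhhc13 (0.464), a palmitoyltransferase. The highest were 1700112E06Rik (1.88), Dna2 (1.83), a DNA nuclease and helicase in which the intron lies in the 3′ UTR, Myo7a (1.61), an unconventional myosin, Nr2c2ap (1.57) and Ap2a2 (1.49). The scatter between mice of a group followed the number of reads as in other introns. The median SD of the log2 ratio was 0.495 for members of 10 to 100 reads, 0.225 for 100 to 1000 and 0.119 above 1000, against 0.552, 0.227 and 0.119 for all introns.

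**Figure D1:**
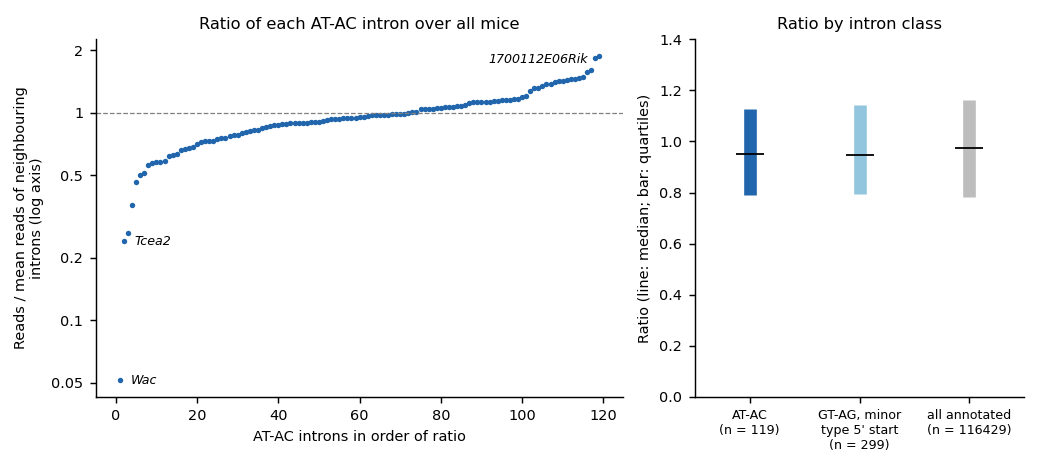
Left, neighbour ratio (reads divided by the mean reads of neighbouring introns, log axis) of each of 119 AT-AC introns over all mice, in order. Right, median (line) and quartiles (bar) of this ratio in AT-AC introns, in GT-AG introns with a minor type 5′ start and in all annotated introns. The class medians are 0.953, 0.948 and 0.975, and Wac, which lacks the start ATATCC, stands apart at 0.0514.

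The share of the annotated AT-AC introns in the junction reads of a library averaged lower in S34F than in WT mice under both treatments. It was 783 ± 29.1 RPM (reads scaled to a common total of junction reads) (SD, n = 5) in WT vehicle, 782 ± 22.3 in WT sudemycin, 737 ± 17.5 in S34F vehicle and 754 ± 26.5 in S34F sudemycin mice. WT vehicle (763 to 834) and S34F vehicle mice (708 to 755) did not overlap, whereas WT sudemycin (751 to 811) and S34F sudemycin mice (730 to 795) did. Without Arpc5, which held 11.4% of these reads, the ranges of WT vehicle and S34F vehicle mice were 681 to 729 and 631 to 668. This share is not scaled to the levels of the host genes, and their part in the difference was not tested.

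The first comparison asks how U2AF1(S34F) differs from U2AF1(WT) marrow without the drug. In S34F vehicle mice the intron of Srsf10, an SR-related splicing regulator, was read more often relative to its neighbours, and the introns of Hip1, a clathrin and actin linker of endocytosis, D10Jhu81e, Cep170, a centrosomal protein, and Arpc5 were read less often. These were 5 of 120 AT-AC junctions tested, against 7.3% of 125187 junctions tested in all (edgeR's quasi-likelihood test with Benjamini-Hochberg adjustment, FDR below 10%). The share was thus no higher than the background, and 12 of 302 GT-AG introns with GTATCCTT were called. The median log2 difference was 0.015 over the AT-AC junctions and -0.005 over all junctions.

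The Arpc5 ratio in WT vehicle mice 1 to 5 was 1.23, 1.22, 1.22, 1.52 and 1.16. In S34F vehicle mice 1, 3, 5, 7 and 11 it was 1.14, 1.06, 0.961, 0.887 and 1.15. The 5 WT mice all lay above the 5 S34F mice, although the closest pair differed by little, and the log2 difference was -0.29 (SE 0.084, adjusted p = 0.0692). Arpc5 was also picked for this separation, and how often junctions separate by chance was not tested. On the scale of 1000 gene reads the Arpc5 intron fell from 171 ± 29.3 to 135 ± 6.59 (SD, n = 5 each), while its downstream neighbour was at 135 and 130. Arpc5 was the only member called on both scales, against 3.38% of all junctions called on both in the same direction, and its gene level was higher in S34F mice (log2 0.37, adjusted p = 0.0090).

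Srsf10 had ratios of 0.433, 0.695, 0.717, 0.475 and 0.6247 in WT vehicle mice and 0.888, 0.807, 0.667, 0.754 and 0.961 in S34F vehicle mice. The groups overlapped only at S34F mouse 5, and the log2 difference was 0.47 (SE 0.14, adjusted p = 0.0790). The Srsf10 intron itself was at 84.8 and 105 reads per 1000 gene reads, and its upstream neighbour at 113 and 90.7. For Hip1 the ratios were 2.13, 2.03, 1.85, 3.33 and 1.71 in WT vehicle mice and 1.17, 1.26, 1.32, 1.57 and 1.85 in S34F vehicle mice (log2 -0.61, SE 0.19, adjusted p = 0.0825). WT vehicle mouse 4 was far above the rest, and S34F mouse 11 reached into the WT range. Its upstream neighbour, the first intron, carried only 46.8 reads and was at 6.02 and 10.4 reads per 1000 gene reads. With all other introns of the gene in place of the neighbours the Hip1 difference was -0.21 (adjusted p = 0.501) and was not called. D10Jhu81e (log2 -0.56, adjusted p = 0.0485) and Cep170 (-0.35, 0.0885) had overlapping groups, with means of 1.64 ± 0.311 against 1.11 ± 0.131 and 1.21 ± 0.167 against 0.952 ± 0.0653. Cep170 was also not called with all other introns as reference (log2 -0.23, adjusted p = 0.258).

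The number of these calls changed when single mice were left out. The count was 5 with all mice, 2 without WT vehicle mouse 1 or without S34F vehicle mouse 1, 3 or 5, 1 without WT vehicle mouse 4, and 0 without S34F vehicle mouse 7 (edgeR, 15 at an unadjusted p under 0.05). Arpc5 lost its call without WT mouse 3 or 4 or S34F mouse 3, 5 or 7, with log2 differences between -0.33 and -0.21 over all 10 omissions. D10Jhu81e kept its call in 8 of the 10, Srsf10 and Hip1 in 4 each, and Cep170 in 2. Over all junctions the calls ranged from 4263 to 10570 in the same omissions, against 9139 with all mice.

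On the gene ratio 8 of 120 were called, against 9.01% of 125921 junctions. Of these 7 were higher in S34F vehicle mice, namely Stx6, a SNARE protein (log2 0.58), Zc3h4 (0.50), Taf2 (0.44), Ap2a2 (0.37), Rasgrp2 (0.35), Tcea1, a transcription elongation factor (0.30), and Spcs2 (0.27), and Arpc5 was lower (-0.35). Without WT vehicle mouse 3, which had the fewest junction reads per gene read, 3 were called, 1 higher (Ap2a2) and 2 lower, among them Arpc5. Over all junctions this omission gave 9302 calls, against 11343 with all mice. The Ap2a2 intron was at 64.0, 69.6, 59.4, 71.0 and 78.1 reads per 1000 gene reads in WT vehicle mice and at 82.5, 81.2, 96.2, 90.4 and 92.9 in S34F vehicle mice. Its groups did not overlap (adjusted p = 0.0220), while its neighbour ratio differed by a log2 of 0.05 (adjusted p = 0.840).

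The second comparison sets the genotypes against each other under sudemycin D6. Relative to their neighbours, 6 named introns were read less often in S34F sudemycin than in WT sudemycin mice. They were those of Arpc5, Arpc5l, Phb2, a mitochondrial prohibitin, Crnkl1, a spliceosome protein, E2f4, a cell cycle transcription factor, and Diap1. Those of Myo7a, Setd1b, a histone H3K4 methyltransferase, Srsf10, Tcea1 and Gars, the glycyl-tRNA synthetase, were read more often relative to their neighbours. In all 12 of 120 AT-AC junctions were called on the neighbour ratio, 5 higher and 7 lower, against 11.4% of all junctions, and 28 of 302 GT-AG introns with GTATCCTT. The gene ratio called 13, 3 higher and 10 lower, against 13.4%.

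For Arpc5 the ratios of WT sudemycin mice 6, 8, 9, 10 and 12 were 1.37, 1.61, 1.37, 1.36 and 1.55. Those of S34F sudemycin mice 2, 6, 9, 10 and 12 were 1.05, 1.08, 1.10, 1.18 and 0.978. All WT mice lay above all S34F mice, with means of 1.45 ± 0.118 and 1.08 ± 0.0722 and a log2 difference of -0.43 (SE 0.064, adjusted p = 0.00160). The gene ratio fell as well (log2 -0.56, adjusted p = 0.000368), from 196 to 133 reads per 1000 gene reads, with the downstream neighbour at 135 and 124.

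Arpc5l, the paralogue, showed ratios of 0.680, 1.05, 0.708, 0.735 and 0.654 in WT sudemycin mice and 0.504, 0.488, 0.495, 0.552 and 0.404 in S34F sudemycin mice. Again the groups did not overlap (log2 -0.63, SE 0.14, adjusted p = 0.0167), and the gene ratio gave a log2 difference of -0.61 (adjusted p = 0.00925). Under vehicle its neighbour ratio differed by a log2 of -0.51, which did not pass the test (adjusted p = 0.139).

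Phb2 was at 1.62, 1.76, 1.77, 1.73 and 1.63 in WT sudemycin mice and at 1.31, 1.20, 1.08, 1.26 and 1.02 in S34F sudemycin mice. The gap between the groups was wider than the range within either (log2 -0.53, SE 0.083, adjusted p = 0.00204). Its upstream annotated neighbour is a rare alternative intron of 14.4 reads, so the ratio rests on the downstream intron, which was at 233 and 255 reads per 1000 gene reads while the AT-AC intron was at 202 and 152.

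Setd1b was at 1.35, 1.24, 0.928, 1.25 and 1.25 in WT sudemycin and at 1.91, 1.73, 2.33, 1.398 and 1.65 in S34F sudemycin mice, without overlap (log2 0.57, SE 0.15, adjusted p = 0.0363). Its own level was 41.1 and 50.2 reads per 1000 gene reads, and that of its downstream neighbour 52.1 and 42.2. With all other introns of the gene as reference the Setd1b difference was 0.29 (adjusted p = 0.210) and was not called. Arpc5l, Phb2 and Setd1b were also picked as the largest differences without overlap. How often junctions separate by chance was not tested. Myo7a gave the largest log2 difference of the 12 (0.66, adjusted p = 0.0678), but there the AT-AC intron was at 41.3 and 36.4 reads per 1000 gene reads and its downstream neighbour at 28.7 and 11.6. With all other introns of the gene in place of the neighbours the Myo7a difference changed sign (log2 -0.16).

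Among the 12, Srsf10 (log2 0.33, adjusted p = 0.0445), Tcea1 (0.31, 0.0306) and Gars (0.27, 0.0448) were the other introns read more often, of which Srsf10 (0.18, 0.360) and Gars (0.24, 0.103) were not called with all other introns as reference. Crnkl1 (-0.45, 0.0938), E2f4 (-0.44, 0.0604) and Diap1 (-0.24, 0.0711) were also read less often. A further 7 introns were called on the gene ratio alone. Those of Tgs1 (log2 -0.67), which methylates the cap of small nuclear RNAs, Slc9a9 (-0.66), a sodium and proton exchanger, Vps52 (-0.41), a vesicle tethering protein, and Diap2 (-0.33) were lower. Those of Zdhhc9, a palmitoyltransferase (0.44), Ap2a2 (0.38) and Rasgrp2 (0.35) were higher. The Diap2 and Zdhhc9 introns lie on the X chromosome.

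Called on both scales in the same direction were 6 of 120, among them Arpc5, Arpc5l, Phb2, Crnkl1 and Diap1, against 5.71% of all junctions. All 6 were lower in S34F sudemycin mice, where 62.6% of the 7128 such junctions in the table were lower, and of 18 such GT-AG introns with GTATCCTT 10 were lower. The calls of Arpc5, Arpc5l, Phb2 and Tcea1 on the neighbour ratio held when any 1 of the 10 mice was left out. The count of 12 became 6 without S34F sudemycin mouse 2 and 5 without mouse 9. On the gene ratio 11 were called without S34F sudemycin mouse 12, and Crnkl1, Diap1 and Diap2 were not among them. Over all junctions this omission gave 11804 calls, against 16882 with all mice.

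**Figure D2:**
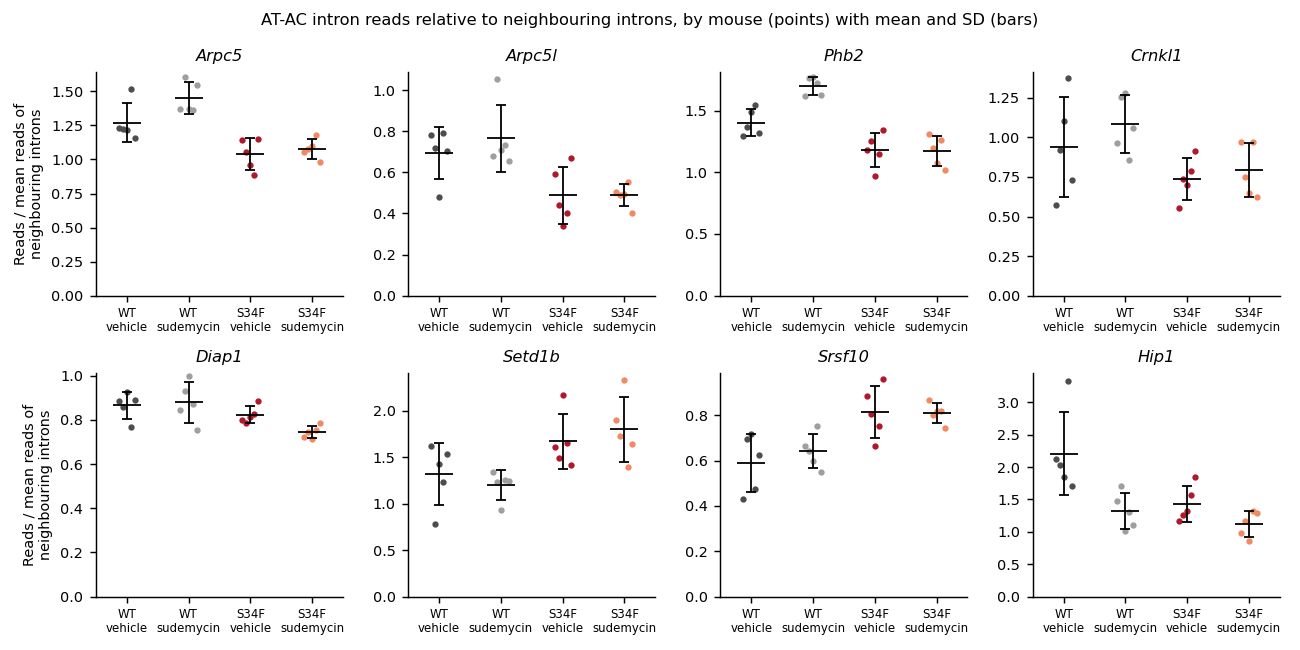
Neighbour ratio (reads divided by the mean reads of neighbouring introns, axis from 0) of 8 AT-AC introns in the 4 groups, with a point for each mouse, the mean (long line) and the SD (bars), n = 5. The first 5 were called on both scales under sudemycin, where Arpc5, Arpc5l and Phb2 of S34F mice lie below and Setd1b above all WT sudemycin mice, and Srsf10 and Hip1 were called between genotypes under vehicle.

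The genotype differences of the AT-AC junctions under vehicle and under sudemycin, which rest on different mice, had the same sign for 87 of 120 (72.5%), against 71.0% of all junctions. The Pearson correlation across the 120 junctions was 0.423 and the Spearman correlation 0.507, against 0.449 and 0.511 for all junctions. This is a description across introns, which share their libraries and are not independent replicates. Arpc5 and Srsf10 were called in both comparisons. With 1 mouse left out, Arpc5 kept its call in 5 of 10 fits under vehicle and 10 of 10 under sudemycin. Srsf10 kept its call in 4 of 10 and 8 of 10, and lost that under sudemycin in one model of all mice.

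**Figure D3:**
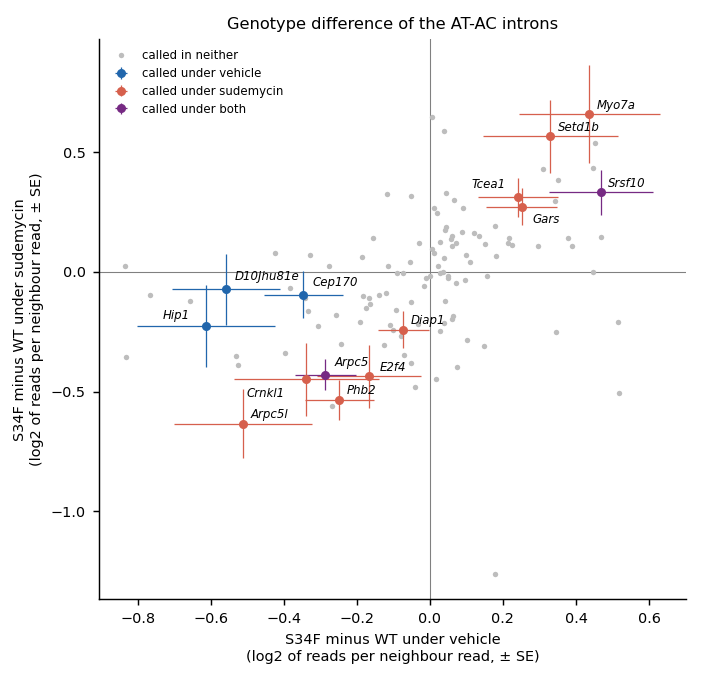
Log2 difference of the neighbour ratio, S34F minus WT, under vehicle (horizontal axis) and under sudemycin (vertical axis) for 119 of the 120 AT-AC junctions tested, with SE bars for those called in either. Arpc5 (-0.29 and -0.43) and Srsf10 (0.47 and 0.33) were called in both, and each called intron shown lies on the same side of 0 on both axes.

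The next comparison asks what sudemycin D6 did to these introns in WT marrow. No AT-AC junction passed the test on either scale. The AT-AC introns of Hip1, Kcmf1, a ubiquitin ligase, and Phb2 separated the 2 groups without overlap, but their adjusted p-values were high. They were picked from the 120 junctions tested as the largest differences without overlap. How often junctions separate in this way by chance was not tested, so no drug effect is read from the separation. On the neighbour ratio 0 of 120 were called with edgeR, against 0.0224% of all junctions, with 7 at an unadjusted p under 0.05. DESeq2 and limma also called 0, with 8 at an unadjusted p under 0.05 by each. The gene ratio called 0 with edgeR, against 0.0874%, with 7 at an unadjusted p under 0.05. On both scales 0.0184% of all junctions were called. The median log2 difference of the neighbour ratio was -0.045 over the AT-AC junctions, -0.060 over the GT-AG introns with GTATCCTT and 0.002 over all junctions, and 57.5% of the AT-AC junctions were negative against 49.5% of all.

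Hip1 was at 2.13, 2.03, 1.85, 3.33 and 1.71 in WT vehicle and at 1.47, 1.70, 1.02, 1.31 and 1.11 in WT sudemycin mice (log2 -0.73, SE 0.20, adjusted p = 0.756). The closest mice of the groups were at 1.71 and 1.70. Its upstream neighbour was at 6.02 and 13.1 reads per 1000 gene reads and the AT-AC intron at 41.8 and 29.8. Kcmf1 was at 1.10, 1.16, 0.939, 1.20 and 1.08 and then at 0.861, 0.894, 0.741, 0.905 and 0.925 (log2 -0.34, adjusted p = 0.863). Phb2 was higher in every sudemycin mouse than in any vehicle mouse, with means of 1.403 ± 0.109 and 1.70 ± 0.0742 (log2 0.28, adjusted p = 0.863).

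In S34F marrow the drug comparison gave 1 called member, the intron of E2f2, which was read less often relative to its gene under sudemycin. Its level was 80.5, 93.0, 96.2, 91.6 and 85.5 reads per 1000 gene reads in S34F vehicle mice and 65.5, 78.3, 68.3, 65.3 and 73.3 in S34F sudemycin mice. No mouse of the vehicle group was below any of the sudemycin group (log2 -0.35, SE 0.074, adjusted p = 0.0375), and without S34F sudemycin mouse 12 the difference was -0.37 (adjusted p = 0.0336). This was 1 of 120 on the gene ratio, against 0.199% of all junctions.

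The neighbours of the E2f2 intron were at 55.6 and 51.3 (upstream) and 55.1 and 48.0 (downstream) reads per 1000 gene reads. The neighbour ratio, at 1.45, 1.64, 1.76, 1.66 and 1.57 under vehicle and 1.32, 1.53, 1.31, 1.35 and 1.57 under sudemycin, overlapped and was not called (log2 -0.19, adjusted p = 0.801). In WT mice the E2f2 intron was at 77.4 ± 10.98 reads per 1000 gene reads under vehicle and 60.1 ± 18.5 under sudemycin (log2 -0.37, adjusted p = 0.892). There its neighbour ratio was at 1.58, 1.75, 1.64, 1.49 and 1.51 and then at 1.24, 1.19, 1.56, 1.05 and 0.914 (log2 -0.42, adjusted p = 0.83). WT sudemycin mouse 9 lay within the vehicle range and the other 4 below it.

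On the neighbour ratio 0 of 120 were called in S34F marrow (edgeR, 8 at an unadjusted p under 0.05), against 0.0463% of all junctions, and both scales together called 0.0449%. DESeq2 called 0 with 10 at an unadjusted p under 0.05 and limma 0 with 9. The median log2 difference was -0.043, against -0.034 for GT-AG introns with GTATCCTT and -0.003 for all junctions. Diap1 had the largest difference without overlap (log2 -0.15, adjusted p = 0.837). It too was picked from the 120 for this separation, and how often junctions separate by chance was not tested. The drug differences in WT and in S34F marrow had the same sign for 71 of 120 AT-AC junctions (59.2%), against 54.5% of all junctions. Nop2 did not pass the test in any comparison, with log2 differences of -0.10 and -0.24 between genotypes and 0.17 and 0.03 between treatments.

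Sudemycin-treated S34F mice were also set against WT vehicle mice, which carry neither the mutation nor the drug. Relative to their neighbours, the introns of Hip1, Xpo4, a nuclear export receptor, Kcmf1, Arpc5l, Arpc5 and Diap1 were read less often, and that of Srsf10 more often. These 7 of 120 stood against 6.9% of all junctions. On the gene ratio 6 were called, 3 higher and 3 lower, against 6.64%, and on both scales 2 (Arpc5 and Hip1) against 2.91%. Without WT vehicle mouse 3 the gene ratio called 8, 2 higher and 6 lower, and Zdhhc9 lost its call (adjusted p = 0.161). Without S34F sudemycin mouse 12 it called 7, 5 higher and 2 lower, and Arpc5 lost its call (adjusted p = 0.104), so that the balance of higher and lower turned with 1 mouse. Over all junctions these omissions gave between 6366 and 7957 calls, against 8362 with all mice. This comparison shares mice with the others.

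Hip1 had the largest difference, from 2.13, 2.03, 1.85, 3.33 and 1.71 to 0.979, 1.17, 0.860, 1.32 and 1.29 (log2 -0.96, SE 0.18, adjusted p = 0.0119). Kcmf1 went from 1.10, 1.16, 0.939, 1.20 and 1.08 to 0.749, 0.747, 0.754, 0.931 and 0.634 (log2 -0.52, SE 0.10, adjusted p = 0.0132). Xpo4 went from 1.36, 1.505, 1.42, 2.04 and 1.36 to 0.890, 1.14, 0.792, 1 and 1.07 (log2 -0.63, SE 0.16, adjusted p = 0.0395). None of these groups overlapped, but these introns were picked from the junctions tested as the largest differences without overlap. How often junctions separate in this way by chance was not tested. The calls of Hip1 and Kcmf1 held without any 1 mouse. Xpo4 lost its call without S34F sudemycin mouse 2 or 9 (adjusted p up to 0.114) and with all other introns of the gene as reference (log2 -0.34, adjusted p = 0.235). With that reference Hip1 was at -0.46 (adjusted p = 0.0816), and Arpc5l (-0.36, 0.177) and Diap1 (-0.19, 0.119) were not called. The Xpo4 intron was at 65.1 and 52.9 reads per 1000 gene reads and its upstream neighbour at 28.6 and 49.9.

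Over the 120 junctions the median log2 difference was -0.072 against -0.009 for all junctions, and 78 were negative (65%, against 51.2% of all). The count of 7 became 2 without S34F sudemycin mouse 2 or 9 and 3 without mouse 6. The drug difference was also compared between the genotypes. For this interaction 0 of 120 members and 0% of all junctions were called on either measure (edgeR, 4 members at an unadjusted p under 0.05 on the neighbour ratio and 3 on the gene ratio). DESeq2 called 0 members (4 at an unadjusted p under 0.05) and limma 0 (3).

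Some AT-AC introns share a donor or acceptor region with other junctions. Of 119 introns, 38 had a junction of at least 1 read with an end within 100 bases, 54 junctions in all, and in 10 introns such a junction held over 5% of the reads of both. Separately from that share, every pair whose other junction averaged 10 reads or more was compared once, 14 pairs in all, in 5 comparisons by a two-sided exact permutation test of the share in each mouse. None of the 70 exact tests passed after Benjamini-Hochberg adjustment (smallest exact p = 0.00794, the smallest that 5 against 5 mice allow, adjusted p = 0.185). With 70 tests, a few pairs at this smallest p could not pass after adjustment. The tests therefore cannot decide whether a single pair differs.

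In Tmem87a, 2 AT-AC donors with a shift of -577 bases between them use 1 acceptor, and the longer intron held 32.4%, 22.6%, 29.3% and 21.9% of their reads in WT vehicle, WT sudemycin, S34F vehicle and S34F sudemycin mice. The donors were written as follows, with the shorter intron at chr2:120197369-120199646 and the longer at chr2:120197369-120200223, both on the minus strand.
Tmem87a shorter intron donor: tggATATCCTTctca
Tmem87a longer intron donor: tggATATCCTTtaat

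In Srsf10 a GT-AG intron inside the AT-AC intron uses a donor shifted by 792 bases and an acceptor shifted by -3 bases, the AG that stands just before the AC in the sequence above. Its share was 5.22%, 8.72%, 8.33%, 17.4% and 10.9% in WT vehicle, 10.3%, 9.80%, 7.83%, 5.83% and 6.56% in WT sudemycin, and 4.12%, 6.87%, 3.77%, 8.75% and 4.94% in S34F vehicle mice. In S34F sudemycin mice it was 4.73%, 2.71%, 2.54%, 3.11% and 2.96%, below every WT mouse of either treatment (unadjusted exact permutation p = 0.00794 against either WT group, adjusted p = 0.185). A second GT-AG junction from a donor at 62 bases held means of 20.7% to 24.3% in the groups.

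In Arpc5l a GT-AG junction with a donor shifted by -20 bases and an acceptor shifted by 2 bases, at the AG after the AC printed above, held 5.23%, 1.36%, 6.36%, 4.63% and 3.75% in WT sudemycin and 7.39%, 8.25%, 6.83%, 7.55% and 6.54% in S34F sudemycin mice. The groups did not overlap (unadjusted exact permutation p = 0.00794, adjusted p = 0.185). In Wac the AT-AC intron had the lowest ratio. There a GT-AG junction with its donor shifted by 5645 bases and its acceptor by -80 bases held between 66.3% and 93.7% of their reads in every mouse. In Thoc2, of the mRNA export complex TREX, an AT-AA junction shifted by 6 bases at the acceptor held 4.68% over all mice.

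**Figure D4:**
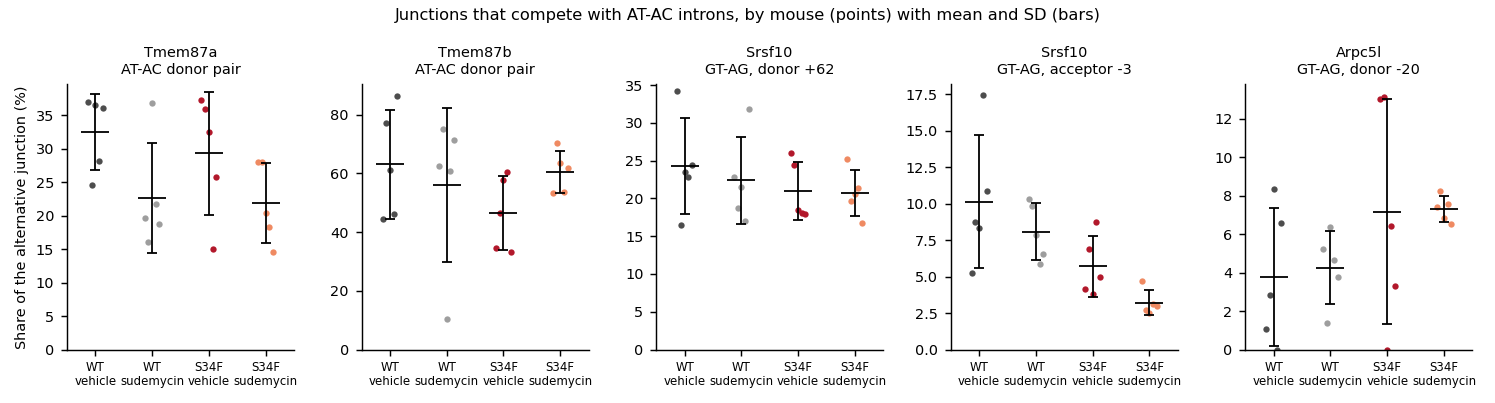
Share (%) of an alternative junction in the reads of it and the AT-AC intron, with a point for each mouse, the mean (long line) and the SD (bars), n = 5, for 5 pairs in 4 groups. The panel of the Srsf10 acceptor shifted by -3 bases shows S34F sudemycin mice at 2.54% to 4.73%, below all WT mice, and the other panels show wide scatter within groups.

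Many host genes differed in level between the genotypes. Between genotypes 69 of 146 host genes were called under vehicle (36 higher, 33 lower in S34F mice, against 39.5% of all genes) and 63 of 145 under sudemycin (34 higher, 29 lower, against 36.8%). Srsf10 was higher in both (log2 0.43 and 0.35), and Rasgrp2 was lower in both (-0.38 and -0.40). The drug changed 5 of 145 in WT marrow (against 3.07%) and 15 of 143 in S34F marrow, 13 of them higher (against 10.8%). Gars was higher under sudemycin in both genotypes (log2 0.43 and 0.30), and Hip1 was higher in S34F marrow (0.39). Between S34F sudemycin and WT vehicle mice 82 of 146 were called, 50 higher and 32 lower, against 50.2%. For the interaction 0 of 146 host genes were called (edgeR, 5 at an unadjusted p under 0.05), against 0.013% of all genes.

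Of 20 listed genes of the minor spliceosome, 15 were in the gene table. In S34F vehicle mice Rnpc3, which binds U12 RNA (log2 0.42), Cript (0.35) and Txnl4b (0.30) were higher and Zrsr2 was lower (-0.18), 4 of 15 in all, against 39.5% of all genes. The Zrsr2 level was 25.8, 23.5, 27.6, 28.3 and 28.3 CPM in WT vehicle and 24.8, 23.7, 23.3, 24.3 and 23.5 in S34F vehicle mice, so that WT mouse 2 lay within the S34F range. Under sudemycin Cript was higher (0.37) and Armc7 lower (-0.48) in S34F mice, 2 of 15 against 36.8%. For the drug, 0 of 15 were called in WT marrow (edgeR, 1 at an unadjusted p under 0.05), against 3.07% of all genes, and Zrsr1, a relative of Zrsr2, was lower under the drug in S34F marrow (log2 -0.39, adjusted p = 0.055). Against WT vehicle mice, S34F sudemycin mice had 5 higher and 2 lower of 15, a share near the 50.2% of all genes.

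Of the SF3B genes, Sf3b3 rose under the drug from 156 ± 7.56 to 239 ± 39.1 CPM in WT marrow (log2 0.61) and from 159 ± 9.13 to 232 ± 17.8 in S34F marrow (log2 0.54). Its groups did not overlap in either genotype. Sf3b4 was lower in S34F mice under vehicle and under sudemycin (log2 -0.35 and -0.24) and rose under the drug in S34F marrow (0.34). Sf3b1, at means of 685 to 783 CPM in the 4 groups, passed the test neither between treatments nor between genotypes of 1 treatment. These are levels of genes of both spliceosomes and not of the AT-AC introns.

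**Figure D5:**
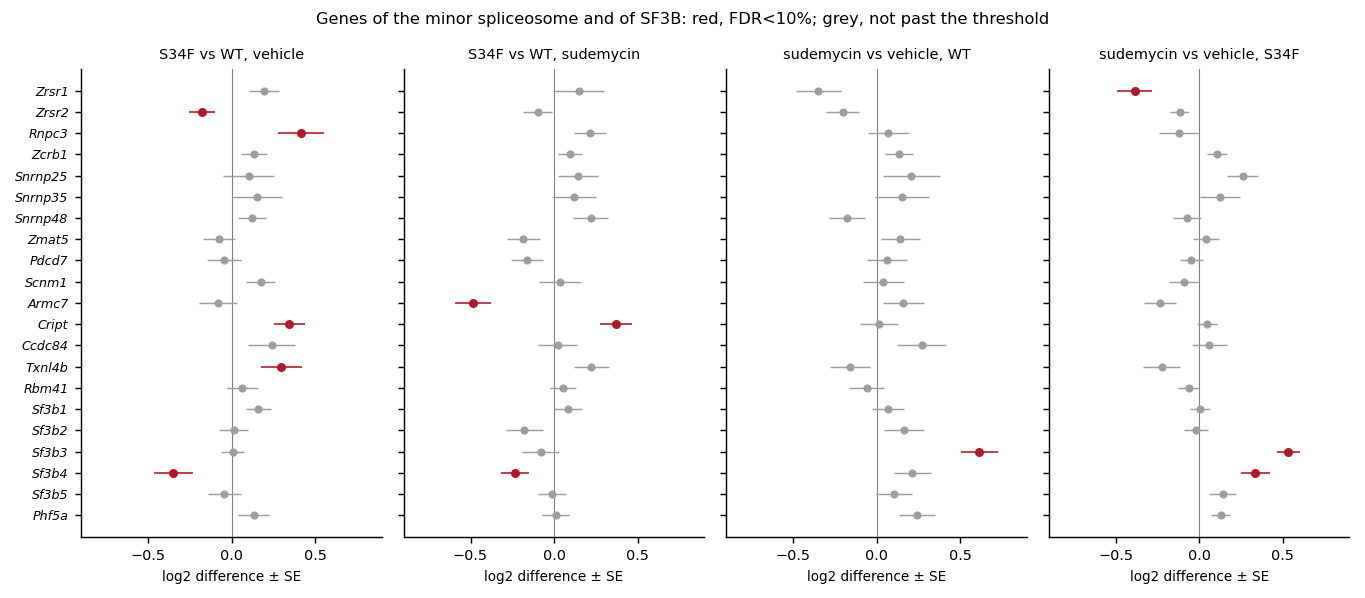
Log2 difference of the gene level (± SE) of 15 minor spliceosome genes and 6 SF3B genes in 4 comparisons, each on 5 against 5 mice, with genes at FDR below 10% in red. Sf3b3 is higher under sudemycin in both genotypes (0.61 and 0.54), Cript is higher in S34F mice under both treatments, and Zrsr2 is lower in S34F vehicle mice (-0.18).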

How the data were processed

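The authors deposited whole-number read counts for each gene and each splice junction of every mouse, without normalization. Per the submitters' processing notes, reads were aligned with TopHat2 2.0.8 to mm9 and handled with SAMtools. The tool that counted reads on junctions and genes is not given in the sources used here. Libraries were stranded and depleted of ribosomal RNA, and the sum of counts per mouse is given above as depth.

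Annotated introns were placed on genes with a GENCODE annotation of NCBIM37, and sequences were read with pysam 0.24.0. Neighbours are the nearest annotated introns of the same gene on either side that do not overlap it and have a mean of 10 reads or more. Junction counts were tested in R 4.3.3 with edgeR 4.0.16 (quasi-likelihood test, Benjamini-Hochberg adjustment, FDR below 10%), with the neighbour counts or the gene counts plus 0.5 as offset. All junctions with a mean of 10 reads or more were fitted, each comparison on its own 10 mice and the interaction on all. Gene counts were tested with edgeR after TMM normalization, with a prior count of 2 for log2 values. Adjusted p-values in the text come from these fits unless a permutation test is named. CPM values of genes were computed from the same gene counts, with library totals scaled by TMM.

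Alternatives for the neighbour ratio were DESeq2 1.42.0, limma 3.58.1, read minimums of 1 and 50, an FDR below 5%, all other introns of the gene as reference, one model of all mice, a replicate block between genotypes, and each mouse left out. The gene ratio was repeated with a minimum of 50 reads and, after seeing the data, without the mouse with the fewest or next fewest junction reads per gene read. Gene levels were repeated with DESeq2's size factors and without a filter. The fits were tested on simulated data with known changes. The columns that count skipped exons and describe the junctions were used only to read the table.

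The members, the gene lists and the tests were chosen with earlier results of these data known. Introns were named by a rule: up to 8 called introns with the largest difference per comparison and ratio, the 10 most read, the 3 largest differences without overlap per comparison, the 5 lowest and 5 highest neighbour ratios, Nop2, U2af1, and the listed spliceosome genes. The result of 1 called intron is not reported by name here. Others that are named were chosen after their values were seen. Donor marrow of each genotype was pooled before transplantation, so the p-values measure the spread between recipients. No libraries of a group agreed within sampling noise (chi-square per gene 19.0 to 180). Figures were drawn with matplotlib 3.10.9 in Python 3.11.15 (numpy 2.4.6, pandas 2.3.3).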

Additional observations from a re-analysis of the deposited data

Results flagged for a closer look

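Among 120 groups of 5 mice examined, 15 held a mouse far from the other 4, where chance flags about 1 in 20 groups (6 groups).

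WT vehicle mouse 4 stood apart in 4 of them. Its annotated AT-AC introns held 834 RPM of junction reads, with the next mouse at 777. Its neighbour ratios of Hip1 (3.33, next 2.13), Arpc5 (1.52, next 1.23) and Xpo4 (2.04, next 1.505) were the highest of its group. Without this mouse Hip1 and Arpc5 lost their calls between genotypes under vehicle, whereas Hip1 and Xpo4 kept theirs between S34F sudemycin and WT vehicle mice.

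WT sudemycin mouse 9 had the lowest neighbour ratios of Setd1b (0.928, next 1.24) and Gars (0.753, next 0.865), the highest share of the longer Tmem87a intron (36.8%, next 21.7%) and the lowest share of the alternative Tmem87b intron (10.53%, next 60.9%) in its group.

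Arpc5l was low in WT vehicle mouse 3 (neighbour ratio 0.478, next 0.705) and high in WT sudemycin mouse 8 (1.05, next 0.735). A GT-AG junction of Arpc5l that skips to a downstream acceptor held 16.8% in WT sudemycin mouse 6 (next 9.52%). WT vehicle mouse 5 had a Myo7a ratio of 2.27 (next 1.41), and S34F sudemycin mouse 10 a Cep170 ratio of 1.18 (next 1.01). In S34F sudemycin mouse 2 the Srsf10 junction with its acceptor shifted by -3 bases held 4.73% (next 3.11%), which was still below every WT mouse. Junction reads per gene read were 0.930 in S34F sudemycin mouse 12 (next 1.01).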

How the results depend on the processing

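The values here are numbers of AT-AC junctions called on the neighbour ratio, of 120, unless a scale is named. Of the genotype difference under vehicle (5), 1 was called at an FDR below 5%, 9 were called with all other introns as reference (Hip1 and Cep170 not among them), 9 in one model of all mice, and 0 to 7 with 1 mouse left out (0 without S34F vehicle mouse 7, edgeR, 15 at an unadjusted p under 0.05). Under sudemycin (12) the FDR below 5% gave 7 and leaving out 1 mouse 5 to 15. Between S34F sudemycin and WT vehicle mice (7) the same settings gave 3 and 2 to 8, and all other introns gave 13 (Xpo4, Arpc5l and Diap1 not among them). For comparisons that involve genotype, all-junction counts with all other introns or in one model are not given here. Those member counts are therefore not set against a background. On the gene ratio 3 were called under vehicle without WT vehicle mouse 3 (8 with it), against 9302 of all junctions (11343 with it). This omission was chosen after seeing the data. Host genes called for the drug in WT marrow numbered 3 without a filter (5 with it). The Myo7a difference under sudemycin reversed to -0.16 (adjusted p = 0.658) with all other introns as reference. No drug or interaction call on the neighbour ratio arose for a member under any alternative. The cause of these shifts was not tested.

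Over all junctions, calls for the drug numbered 28 (WT) and 58 (S34F) with edgeR and 439 and 471 with DESeq2, and for the interaction 0 and 93. DESeq2 called 14103 under vehicle (edgeR 9139) and 13598 between S34F sudemycin and WT vehicle mice (edgeR 8638). On the gene ratio, the drug in WT marrow gave 110, and 52 without WT vehicle mouse 3. All other introns gave 61 and 171, a minimum of 1 read 62 and 99, and one model 155 and 38 for the drug. Genes called for the interaction numbered 2, and 10 without a filter. An FDR below 5% gave 4082, 8318 and 4039 in the 3 comparisons that involve genotype (main 9139, 14256 and 8638). With 1 mouse left out these 3 ranged from 4263 to 10570, 8222 to 18200 and 3364 to 10674, and the drug gave 13 to 38 in WT and 32 to 75 in S34F marrow.

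Replicate numbers are shared by 3 pairs of mice under vehicle and 4 under sudemycin. Their deviations correlated at 0.169, 0.115 and -0.191, and at -0.188, 0.377, 0.513 and -0.245. For number 3 under vehicle and number 10 under sudemycin this exceeded the highest correlation with another number (0.0844 and 0.480). For the other numbers it did not. These values cannot decide whether mice of the same number are paired. The replicate block on these mice gave 0 members under vehicle (edgeR, 9 at an unadjusted p under 0.05) and 2 under sudemycin, of 848 and 2474 junctions. The same mice without the block, a fit added after seeing the data, gave 0 (9 at an unadjusted p under 0.05) and 4, of 782 and 5668. Introns under 100 reads varied most (SD 0.495 on the log2 scale), so small differences in them were not detectable at this depth.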
